A study of Rattus norvegicus with 4 samples.

Results

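The insulin-like growth factor (IGF) genes examined here were the ligand genes Igf1 and Igf2, the receptor genes Igf1r and Igf2r, and the binding protein genes Igfbp2 to Igfbp7. They were chosen by gene name, and all 10 were listed among the 54532 genes of the count table. They were read in RNA-seq libraries of ear skin from 2 wild-type SD rats. The AAV-Fgf7 group (2 libraries, 1 per rat) was ear skin injected with adeno-associated virus that overexpresses Fgf7, which encodes a fibroblast growth factor for epithelial cells. The AAV-control group (2 libraries, 1 per rat) was skin of the opposite ear, injected with control virus, and all tissue was taken on day 3. Every ear therefore received a virus and an injection. The promoter of the transgene, the content of the control virus, and the age and sex of the rats are not stated in the labels. Sample titles and the design text give opposite ear sides, so side was not used.

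IGF-I and IGF-II are secreted growth factors that signal through the tyrosine kinase receptor IGF1R to the PI3K and AKT pathway. IGF2R, also known as the mannose 6-phosphate receptor, clears IGF-II from the cell surface without a kinase of its own. The IGF binding proteins hold the ligands in the extracellular space, and IGFBP7 is a relative with weak affinity for IGFs. In skin, IGF-I of dermal fibroblasts acts on keratinocytes, which carry IGF1R.

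Library totals ran from 1299136 to 1601321 counts. Fgf7, as the check of the labels, stood at 317 and 979 CPM in the AAV-Fgf7 ears of rats 1 and 2, against 70.6 and 72.4 CPM in their AAV-control ears. CPM are counts relative to the library total (the usual CPM scale), after TMM scaling of the totals. All genes carry mouse Ensembl identifiers and mouse coordinates, of a build not given in the sources used here, although the animals were rats. How reads were assigned to these gene models is not given either, so a count may cover only part of a rat transcript. Keratinocyte markers of the labelled skin had a count for 13 of 14 (Flg at 0), and skeletal muscle markers for 18 of 20. The skeletal muscle list summed higher than the keratinocyte list in every library, at 15625 to 65110 CPM against 2136 to 6952 CPM. Of 10 fibroblast markers 7 had a count, while Dcn, Lum and Mfap5 were at 0 in every library.

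None of the IGF genes changed past the threshold in AAV-Fgf7 ears. Of the 10 genes, 8 had enough counts to be tested, and edgeR's quasi-likelihood test called 0 of them at an adjusted p under 0.05 over 6370 genes (adjusted p = 0.9995 for each). It called 0% of all tested genes, and so missed Fgf7 itself (log2 fold change 3.18, unadjusted p = 0.00100, adjusted p = 0.9995 by edgeR). At an unadjusted p under 0.05 it gave 0 of the 8 members, beside 2.32% of all tested genes. DESeq2 called 0 of the 8, beside 0.0628% of all tested genes. Both AAV-Fgf7 libraries lay above both AAV-control libraries for 0 members, against 14.8% of all tested genes, and below them for 0 members, against 13.3%. The fitted log2 fold change was positive for 2 members and negative for 6, with a median of -0.09, beside -0.02 over all tested genes. The smallest two-sided p that exact permutation of 2 against 2 libraries can reach is 0.33, so no gene was tested that way.

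**Figure D1:**
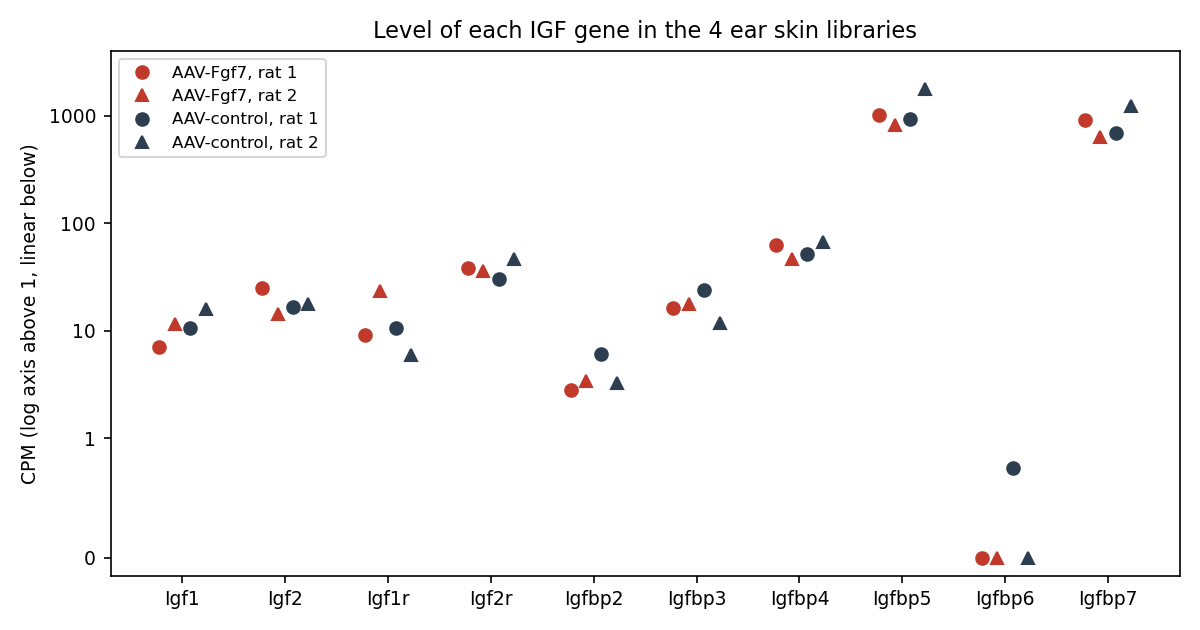
CPM of each IGF gene (vertical axis, logarithmic above 1 and linear below) in each of the 4 libraries, with AAV-Fgf7 in red, AAV-control in dark blue, rat 1 as circles and rat 2 as triangles. Igfbp5 and Igfbp7 lie above all other members in every library, and the groups overlap for every gene.

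Levels between genes were compared per length, as the FPKM values the authors deposited, in which counts are divided by gene model length and a scaled library total. Igfbp7 transcripts were the most abundant, from 521 to 1003 FPKM over the 4 libraries, and those of Igfbp5 came next, from 135 to 294 FPKM. Igfbp4 followed at 10.3 to 14.9 FPKM. These 3 ranges did not overlap each other or that of any other member. Below them each neighbour in the order overlapped the next: Igfbp3 (3.76 to 7.65 FPKM), Igf2r (3.21 to 4.98 FPKM), Igf2 (2.49 to 4.35 FPKM), Igfbp2 (1.496 to 3.24 FPKM), Igf1 (0.698 to 1.58 FPKM), Igf1r (0.350 to 1.38 FPKM) and Igfbp6 (0 to 0.673 FPKM). The order of Igfbp7 and Igfbp5 rests on the division by length, with mouse gene models of 1209 bases for Igfbp7 and 6006 bases for Igfbp5. In CPM, which is not per length, Igfbp5 exceeded Igfbp7 in every library, by 1.11 to 1.46 times. The order also depends on how much of each rat transcript was counted under its mouse gene model, which was not tested.

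The upstream sequences of Igfbp7 and Igfbp5 are shown because these 2 genes supplied nearly all binding protein transcripts. They are the 250 bases before the transcription start in the rat assembly GRCr8, from RefSeq, written 5′ to 3′ on the gene's strand. Igfbp7 lies on the plus strand at chr14:31091486-31091735 and Igfbp5 on the minus strand at chr9:81914188-81914437. Capitals mark matches, on either strand, to the GC box GGGCGG, the E-box CANNTG and the TATA box TATAAA, and no matches overlapped.
Igfbp7: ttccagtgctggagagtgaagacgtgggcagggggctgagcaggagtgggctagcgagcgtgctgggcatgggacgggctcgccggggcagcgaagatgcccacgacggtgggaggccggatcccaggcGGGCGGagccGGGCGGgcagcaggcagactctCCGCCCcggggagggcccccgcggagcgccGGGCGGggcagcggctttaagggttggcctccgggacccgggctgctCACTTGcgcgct
Igfbp5: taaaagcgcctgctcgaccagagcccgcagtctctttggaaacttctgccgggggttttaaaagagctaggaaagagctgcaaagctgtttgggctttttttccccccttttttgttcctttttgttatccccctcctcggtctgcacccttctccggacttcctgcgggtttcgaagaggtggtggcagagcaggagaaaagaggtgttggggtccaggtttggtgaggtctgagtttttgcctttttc
The Igfbp7 window held 4 GC boxes, 1 E-box and 0 TATA boxes, whereas the Igfbp5 window held 0 of each. Of 33469 rat windows of the same length, 30.5% held a GC box, 65.5% an E-box and 12.9% a TATA box. These are matches of letters and do not show binding.

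Igfbp5 encodes a binding protein that attaches to extracellular matrix and is made by dermal, muscle and cartilage cells. It is listed as ENSMUSG00000026185, on the minus strand of mouse chromosome 1 from 72857932 to 72874884. It stood at 1005 and 819.9 CPM in the AAV-Fgf7 ears of rats 1 and 2, against 928 and 1781 CPM in their AAV-control ears. The AAV-control ear of rat 2 was the high library, and the other AAV-control ear lay between the AAV-Fgf7 ears. The log2 fold change was -0.57 (SE 0.33, 95% interval -1.37 to 0.23, unadjusted p = 0.132 by edgeR). Leaving out the AAV-control ear of rat 2 gave -0.02, and leaving out the AAV-control ear of rat 1 gave -0.96 (adjusted p = 0.0987 by edgeR, with a lone AAV-control library). In bulk skin, fewer cells that make a transcript and less of it per cell cannot be told apart.

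Igfbp7 encodes a secreted protein of vessel walls and fibroblasts that also binds insulin. It is listed as ENSMUSG00000036256, on the minus strand of mouse chromosome 5 from 77349240 to 77408041. Its CPM were 908 and 636 in the AAV-Fgf7 ears of rats 1 and 2, against 690.3 and 1223 in their AAV-control ears. The AAV-control ear of rat 2 was again the highest and the AAV-Fgf7 ear of rat 2 the lowest, so the groups overlapped. Its log2 fold change was -0.31 (SE 0.33, 95% interval -1.10 to 0.48, unadjusted p = 0.378 by edgeR), and without the AAV-control library of rat 2 it was 0.17.

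Igfbp5 and Igfbp7 together supplied 96.9% to 98.4% of the summed FPKM of the 6 binding protein genes. The share of Igfbp7 was 80.0% and 77.3% in the AAV-Fgf7 ears of rats 1 and 2, against 76.3% and 76.1% in their AAV-control ears. The share of Igfbp5 was 17.8% and 20.1% in AAV-Fgf7 ears, against 20.6% and 22.3% in AAV-control ears. With the AAV-Fgf7 ear of rat 1 left out, the difference in share came to 1.10 percentage points for Igfbp7, in place of 2.43, and to -1.41 percentage points for Igfbp5, in place of -2.54. The summed FPKM of the binding proteins was 929 and 674 in AAV-Fgf7 ears, against 745 and 1318 in AAV-control ears. The AAV-control ear of rat 2 had the largest pool and the AAV-Fgf7 ear of rat 2 the smallest, so the groups overlapped. In the share of Igfbp7 both AAV-Fgf7 ears lay above both AAV-control ears, as 14.8% of all tested genes did in CPM. The share of Igfbp5 was nearly the complement of that of Igfbp7, so the 2 shares are not separate observations. The summed FPKM of the ligand genes came to 0.543% and 0.542% of the binding protein sum in AAV-Fgf7 ears, against 0.527% and 0.354% in AAV-control ears.

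**Figure D2:**
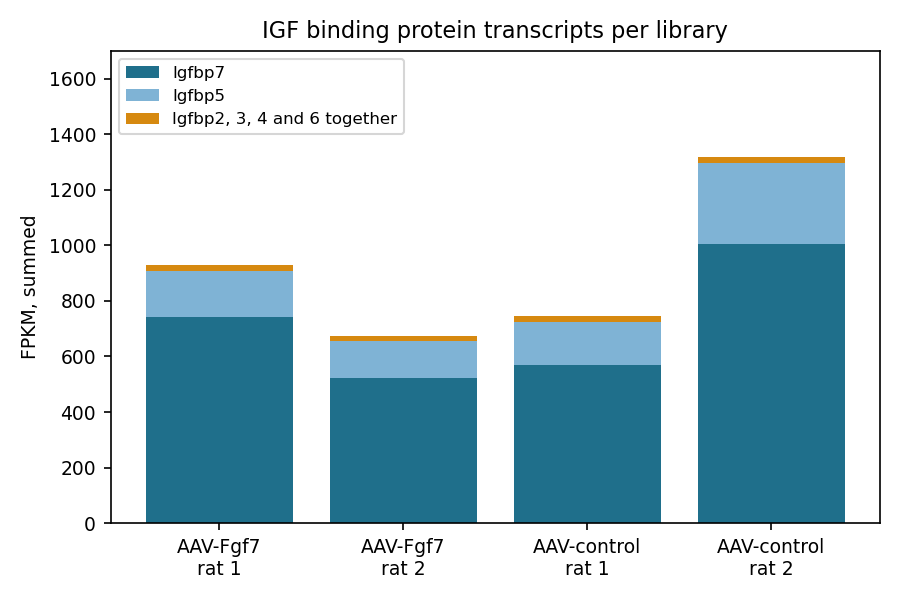
Summed FPKM of the 6 IGF binding protein genes in each library, stacked from Igfbp7 at the bottom through Igfbp5 to the other 4 genes at the top. The sum is 929 and 674 in the AAV-Fgf7 ears and 745 and 1318 in the AAV-control ears of rats 1 and 2.

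No marker list of the ear tissues had the 4 libraries in the same order as Igfbp5 and Igfbp7. Those of skeletal muscle and cartilage shared the 2 highest libraries in order, but not the lowest. The skeletal muscle list summed to 33875 and 16797 CPM in the AAV-Fgf7 ears of rats 1 and 2, against 15625 and 65110 CPM in their AAV-control ears (18 of 20 markers with a count, Tnnc2 and Casq1 at 0). The cartilage list summed to 1184 and 679 CPM in AAV-Fgf7 ears, against 666 and 2219 CPM in AAV-control ears (11 of 13 with a count, Matn1 and Cnmd at 0). Both lists were highest in the AAV-control ear of rat 2 and next highest in the AAV-Fgf7 ear of rat 1, as Igfbp5 and Igfbp7 were. Their lowest library was the AAV-control ear of rat 1, whereas that of Igfbp5 and Igfbp7 was the AAV-Fgf7 ear of rat 2. The fibroblast list summed to 39536 and 26974 CPM in AAV-Fgf7 ears, against 33820.2 and 38812 CPM in AAV-control ears. Its 2 highest libraries and its lowest were those of Igfbp5 and Igfbp7, with the order of the 2 highest reversed. The smooth muscle and pericyte list (7 of 8 with a count, Tagln at 0) summed to 419 and 425 CPM in AAV-Fgf7 ears, against 309 and 519 CPM in AAV-control ears. The keratinocyte list ran otherwise, at 3298 and 6952 CPM in AAV-Fgf7 ears, against 2548 and 2136 CPM in AAV-control ears. The hair follicle list had a count for 16 of 19 (Krt72 and Krt35 at 0, Krt85 not among the genes counted). That list was highest in the AAV-Fgf7 ear of rat 1, at 4881 and 309.6 CPM in AAV-Fgf7 ears, against 87.9 and 1601 CPM in AAV-control ears. The macrophage list (6 of 10 with a count, Cd163, C1qa, C1qb and Itgam at 0) was lowest in the AAV-control ear of rat 2, at 203 and 275 CPM in AAV-Fgf7 ears, against 378 and 146 CPM in AAV-control ears. The endothelial list (8 of 9 with a count, Emcn at 0) stayed between 137 and 169 CPM in the 4 libraries. The adipocyte list (4 of 8 with a count, Adipoq, Plin4, Cidec and Lipe at 0) summed to 319 and 319.9 CPM in AAV-Fgf7 ears, against 270.4 and 514 CPM in AAV-control ears. For the adipocyte, endothelial, and smooth muscle and pericyte lists, the AAV-control ear of rat 2 was also the highest library. The part of tissue makeup in the Igfbp5 and Igfbp7 values was not tested.

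**Figure D3:**
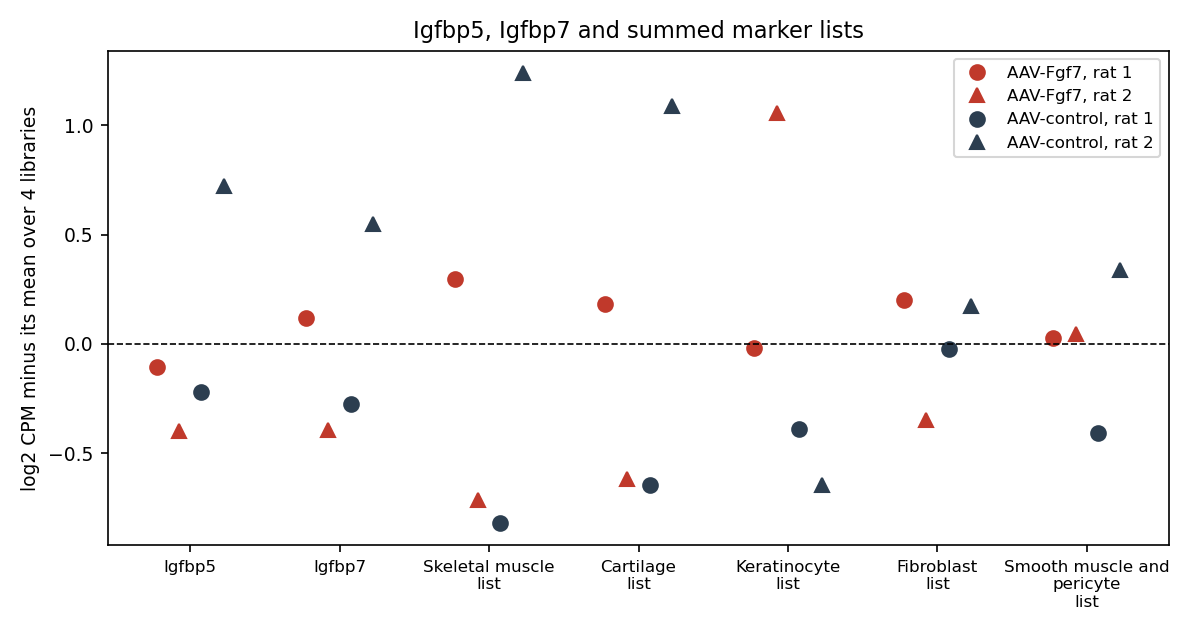
log2 CPM minus its mean over the 4 libraries for Igfbp5, Igfbp7 and the summed CPM of 5 marker lists, with AAV-Fgf7 in red, AAV-control in dark blue, rat 1 as circles and rat 2 as triangles. The AAV-control library of rat 2 is highest for both genes (0.72 and 0.55). It is also highest for the skeletal muscle (1.24), cartilage (1.09) and smooth muscle and pericyte (0.34) lists. For the keratinocyte list it is lowest (-0.65).

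Igfbp4 encodes a binding protein that restrains IGF action until the protease PAPP-A cleaves it, and is listed as ENSMUSG00000017493 on mouse chromosome 11 from 99041244 to 99054392. It stood at 62.9 and 45.9 CPM in the AAV-Fgf7 ears of rats 1 and 2, against 51.1 and 66.5 CPM in their AAV-control ears, with overlapping groups. Its log2 fold change was -0.11 (SE 0.31, 95% interval -0.86 to 0.63).

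Igfbp3 encodes the main IGF carrier of blood, which keratinocytes also make. It is listed as ENSMUSG00000020427 on mouse chromosome 11 from 7206086 to 7213923. Its CPM were 16.1 and 17.8 in AAV-Fgf7 ears, against 24.0 and 11.9 in AAV-control ears. Here the AAV-control ear of rat 2, which was high for Igfbp5 and Igfbp7, was the lowest library and the other AAV-control ear the highest. Its fitted log2 fold change was -0.07 (SE 0.47, 95% interval -1.22 to 1.07). Leaving out the AAV-control ear of rat 1 gave 0.51, and leaving out that of rat 2 gave -0.50.

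Igfbp2 and Igfbp6, binding proteins with a preference for IGF-II, had too few counts to be tested. Raw counts of Igfbp2 (ENSMUSG00000039323, mouse chromosome 1 from 72824503 to 72852474) were 4 and 5 in AAV-Fgf7 ears, against 8 and 5 in AAV-control ears. Igfbp6 (ENSMUSG00000023046, mouse chromosome 15 from 102144362 to 102149511) had 0 and 0 counts in AAV-Fgf7 ears, against 1 and 0 in AAV-control ears. A count of 0 allows up to 3 counts, or 1.98 to 2.10 CPM in the libraries at 0, for counting error only. Fibroblast markers such as Dcn and Lum were also at 0, and rat reads that differ from the mouse model may go uncounted, so these counts do not show that Igfbp6 was absent.

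Among the ligands, Igf1 (ENSMUSG00000020053, mouse chromosome 10 from 87858265 to 87937042) had raw counts of 10 and 17 in the AAV-Fgf7 ears of rats 1 and 2, against 14 and 24 in their AAV-control ears. These gave 6.99 and 11.6 CPM in AAV-Fgf7 ears, against 10.5 and 15.8 CPM in AAV-control ears. The AAV-Fgf7 ear was the lower ear in each rat, although the groups overlapped between rats. In the fit, its log2 fold change was -0.50 (SE 0.51, 95% interval -1.74 to 0.74, unadjusted p = 0.365 by edgeR).

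Igf2, an imprinted gene of fetal growth whose level falls after birth in rodents, was listed as ENSMUSG00000048583 on the minus strand of mouse chromosome 7 from 142650766 to 142666816. It stood at 25.2 and 14.4 CPM in AAV-Fgf7 ears, against 16.5 and 17.8 CPM in AAV-control ears. The AAV-Fgf7 ears held the highest and the lowest library. The fitted log2 fold change was 0.20 (SE 0.43, 95% interval -0.84 to 1.25), and it came to -0.26 with the AAV-Fgf7 ear of rat 1 left out. Per length, Igf2 exceeded Igf1 in each library, by 6.23 and 2.14 times in AAV-Fgf7 ears, against 2.72 and 1.95 times in AAV-control ears. The listed antisense genes Igf1os and Igf2os had 0 counts in all libraries together, and whether counting used strand is not stated.

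H19, the imprinted non-coding gene that neighbours Igf2, is listed 72.6 kb from it on mouse chromosome 7. Raw counts of H19 were 15 and 12 in AAV-Fgf7 ears, against 3 and 41 in AAV-control ears. Its AAV-control ears thus differed 11.98-fold in CPM, whereas those of Igf2 differed 1.08-fold. In the fit, the log2 fold change of H19 was -0.66 (SE 0.96). Its libraries fell in the same order as the skeletal muscle and cartilage lists, with the AAV-control ear of rat 2 highest and that of rat 1 lowest. The order of the AAV-Fgf7 ears in between rests on 15 against 12 counts. Further neighbours are Igfbp2 and Igfbp5, listed 5.46 kb apart on mouse chromosome 1, and Igfbp3 and Igfbp1, listed 3.54 kb apart on mouse chromosome 11. Igfbp1 had no count in any library.

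Igf1r, the signalling receptor, had the largest fitted fold change among the 8 tested members, and it rested on 1 library. It is listed as ENSMUSG00000005533 on mouse chromosome 7 from 67952827 to 68233668. Raw counts were 13 and 34 in the AAV-Fgf7 ears of rats 1 and 2, against 14 and 9 in their AAV-control ears. The AAV-Fgf7 ear of rat 2 held 23.3 CPM (95% exact Poisson interval 16.1 to 32.5, counting error only) and the other AAV-Fgf7 ear 9.08 CPM, against 10.5 and 5.93 CPM in the AAV-control ears of rats 1 and 2. The log2 fold change was 0.98 (SE 0.63, 95% interval -0.54 to 2.51, unadjusted p = 0.166 by edgeR). With the AAV-Fgf7 ear of rat 2 left out it came to 0.15. That library also had the highest Fgf7 level and the highest sum of keratinocyte markers (6952 CPM), whose part in the Igf1r value was not tested.

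Igf2r (ENSMUSG00000023830, mouse chromosome 17 from 12682406 to 12769664) stood at 38.4 and 35.6 CPM in AAV-Fgf7 ears, against 30.0 and 46.7 CPM in AAV-control ears. Both AAV-Fgf7 ears lay between the AAV-control ears. The log2 fold change was -0.06 (SE 0.34, 95% interval -0.88 to 0.77), and without the AAV-control library of rat 2 it was 0.30. Per length, Igf2r exceeded Igf1r 7.63 and 2.76 times in AAV-Fgf7 ears, against 5.15 and 14.2 times in AAV-control ears.

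**Figure D4:**
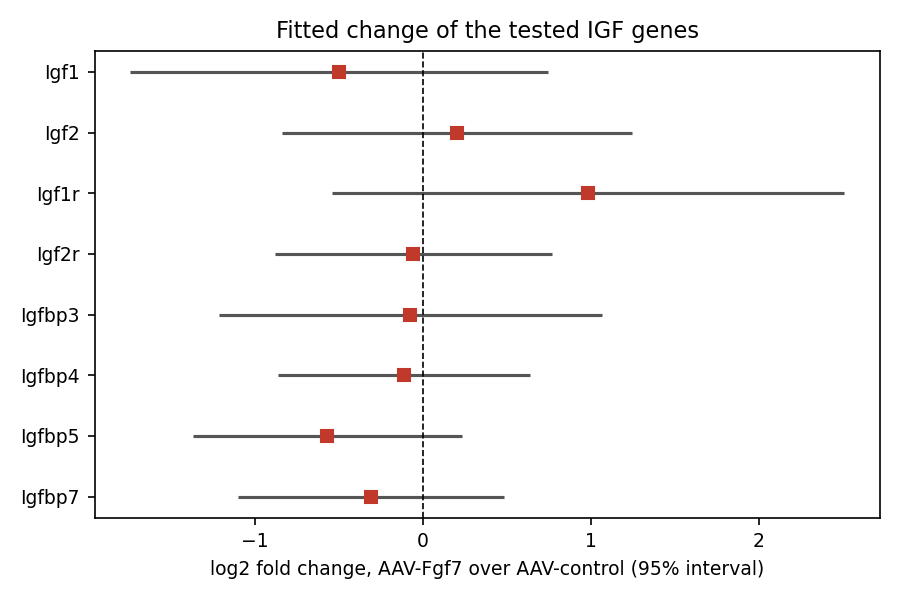
Fitted log2 fold change of AAV-Fgf7 over AAV-control (horizontal axis) for the 8 tested IGF genes, with squares for the edgeR estimate and lines for its 95% interval. Every interval includes 0, and the widest, that of Igf1r, runs from -0.54 to 2.51.

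The intervals bound the changes that these libraries leave possible. For Igfbp5 the interval ran from 0.387-fold to 1.17-fold, and for Igfbp7 from 0.466-fold to 1.40-fold. For Igf1r it ran from 0.687-fold to 5.69-fold, and for Igf1 from 0.299-fold to 1.67-fold. With the rat as a replicate block, the SE rose from 0.33 to 0.38 for Igfbp5 and from 0.33 to 0.40 for Igfbp7. It rose from 0.63 to 0.73 for Igf1r and was 0.50 in place of 0.51 for Igf1. A p above the threshold therefore does not show equal levels.

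Compared between the ears of each animal, few members moved the same way in both rats. Of the 8 tested members, 5 were higher in the AAV-Fgf7 ear of rat 1 and 2 were higher in that of rat 2, and 7 of the 8 went in opposite directions in the 2 rats, beside 59.2% of all 6370 tested genes. Igf1 was the exception, at 0.664 times the AAV-control ear in rat 1 and 0.737 times in rat 2. The CPM ratio of Igfbp5 between the ears came to 1.08 for rat 1 and 0.460 for rat 2, and that of Igfbp7 to 1.32 for rat 1 and 0.520 for rat 2. Igf1r had ratios of 0.864 in rat 1 and 3.93 in rat 2. The AAV-control libraries themselves differed by a median of 0.66 on the log2 scale over the 8 members, beside 0.38 over all tested genes. For the AAV-Fgf7 libraries these medians were 0.48 and 0.31.

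**Figure D5:**
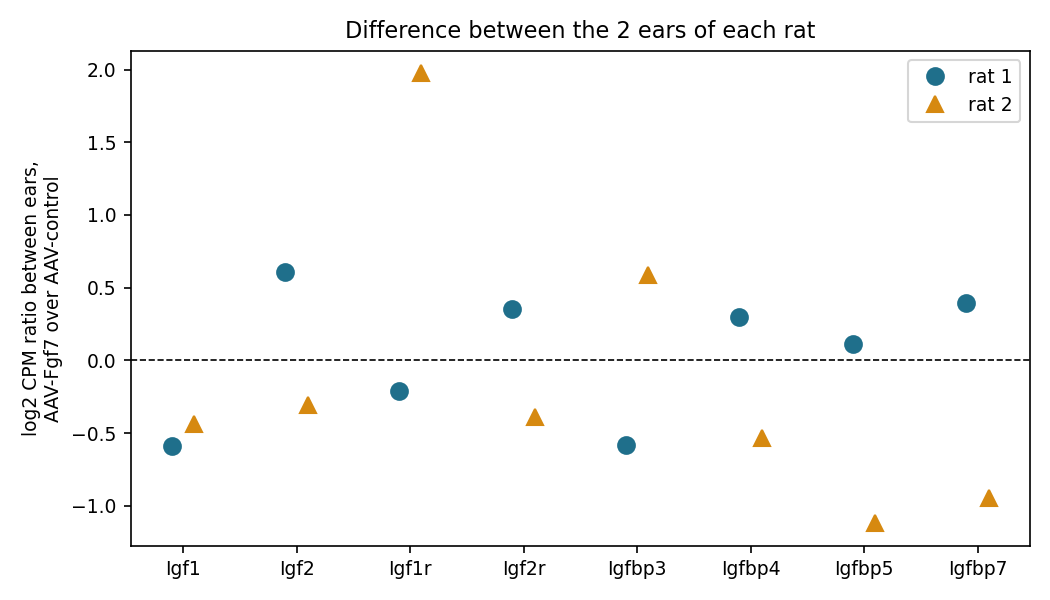
log2 CPM ratio of the AAV-Fgf7 ear over the AAV-control ear (vertical axis) of rat 1 (circles) and rat 2 (triangles) for the 8 tested IGF genes. The points of the 2 rats lie on opposite sides of 0 for 7 of the 8 genes.

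Other genes of the pathway were read from a list of 44, of which 36 had a count and 29 were tested. edgeR called 0 of the 29 (0 at an unadjusted p under 0.05), and DESeq2 called 0. Their log2 fold changes were positive for 12 and negative for 17, with a median of -0.19, beside -0.02 over all tested genes. Both AAV-Fgf7 libraries lay below both AAV-control libraries for 8 of the 29 (27.6%) and above them for 2 (6.90%), beside the 13.3% and 14.8% of all tested genes. The list was chosen with earlier results of these data known, and the difference in share was not tested.

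Among the 8 that lay below were Insr, Irs1 and Irs2, at an unadjusted p of 0.174, 0.151 and 0.242 by edgeR. Insr, the insulin receptor, stood at 20.3 and 21.2 CPM in AAV-Fgf7 ears, against 28.5 and 30.3 CPM in AAV-control ears (log2 fold change -0.50, SE 0.33). Irs1, an adaptor that links IGF1R and the insulin receptor to PI3K, stood at 30.0 and 28.8 CPM in AAV-Fgf7 ears, against 37.6 and 45.4 CPM in AAV-control ears (log2 fold change -0.50, SE 0.30). Its relative Irs2 stood at 42.6 and 44.5 CPM in AAV-Fgf7 ears, against 45.8 and 69.8 CPM in AAV-control ears (log2 fold change -0.41, SE 0.32). For Irs2 the groups were parted by 44.5 against 45.8 CPM only, on raw counts of 65 and 61. The Irs2 value rests on the AAV-control ear of rat 2: it came to -0.07 with that library left out and to -0.68 with the AAV-control ear of rat 1 left out.

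Of the list, Stat5a had the lowest unadjusted p (0.0549 by edgeR, adjusted p = 0.9995). It encodes a transcription factor that acts downstream of the growth hormone receptor, a regulator of Igf1. Stat5a stood at 67.1 and 65.8 CPM in AAV-Fgf7 ears, against 101 and 92.8 CPM in AAV-control ears (log2 fold change -0.55, SE 0.23). Its paralog Stat5b stood at 58.7 and 70.5 CPM in AAV-Fgf7 ears, against 86.4 and 84.3 CPM in AAV-control ears. The coding sequences of the pair are similar, so their reads may be shared, and both count among the 8 that lay below. Stc1, a stanniocalcin of the family that inhibits the IGFBP protease PAPP-A, stood at 46.1 and 24.7 CPM in AAV-Fgf7 ears, against 57.1 and 58.6 CPM in AAV-control ears (log2 fold change -0.71, SE 0.37). Its value came to -0.33 with the AAV-Fgf7 ear of rat 2 left out and to -1.23 with that of rat 1 left out.

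Foxo3 and Pdpk1 were the 2 members of the list above both AAV-control libraries in both AAV-Fgf7 libraries. Foxo3, a transcription factor that AKT keeps out of the nucleus, stood at 58.7 and 69.9 CPM in AAV-Fgf7 ears, against 43.6 and 50.04 CPM in AAV-control ears (log2 fold change 0.46, SE 0.27). Pdpk1, the kinase that activates AKT, stood at 133 and 139.7 CPM in AAV-Fgf7 ears, against 103 and 115 CPM in AAV-control ears (log2 fold change 0.32, SE 0.20). The other genes of the list were not tested. Of these, 8 had no count in any library, among them Igfbp1 and Igfals, the acid-labile partner of circulating IGF complexes, and 7 had too few counts. Igf2bp2, which binds Igf2 mRNA, had raw counts of 1 and 2 in AAV-Fgf7 ears, against 7 and 1 in AAV-control ears.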

How the data were processed

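The authors deposited raw counts per gene and FPKM (counts over gene model length and a scaled library total) for the 4 libraries; the authors' group means were not used. Per the submitters' processing notes the build was Rnor_6.0 (rn6), but all 54532 genes carry mouse identifiers; the sources used here name neither aligner nor counter. Per the labels' protocols, the enrichment was poly(A) selection or ribosomal RNA depletion. The description of the AAV-Fgf7 sample of rat 2 repeats the column of rat 1, so its column was assigned by rat number and title.

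filterByExpr of edgeR 4.0.16 (R 4.3.3) kept 6370 genes (98.9% of counts) of 12902 with a count. TMM factors ran from 0.949 to 1.03, and the common biological coefficient of variation was 29.1%. Groups were compared by edgeR's two-sided quasi-likelihood test with Benjamini-Hochberg adjustment over all tested genes at a threshold of 0.05; standard errors are the fold change over the root of F, and 95% intervals use the test's degrees of freedom. DESeq2 1.42.0 and limma 3.58.1 were alternatives, and the fits were tested on simulated data. Counts carry no molecular identifiers.

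Sample titles number the rats, and the ears of each animal form a pair; deviations of same-rat libraries from group means correlated at r = -0.30 (Spearman -0.26) across 6370 genes, which are not independent.

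Members and lists were chosen with earlier results of these data known. All 10 members were named; of the pathway list, the 6 of lowest p plus Insr, Irs1, Irs2 and Igf2bp2; and the 3 genes closest in pattern to each of the 2 most abundant members. H19, Igfbp1 and Igfals were named after their values were seen. All 10 members matched a symbol and a promoter in the RefSeq tables.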

Additional observations from a re-analysis of the deposited data

How the results depend on the processing

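No IGF gene and no pathway gene was called by any of the 15 alternatives, which covered scaling, low-count filter, tool, FPKM with pseudocounts of 1 and 0.1, the rat as a replicate block, and each library left out. Over all genes edgeR called 0, DESeq2 called 4 (Fgf7, H2afv, Rabac1 and Sfn), edgeR without a low-count filter called 3, and the fits that left out 1 library called 0 to 59. Such fits rest on a lone library in 1 group, which is assumed to vary like the other. With the rat as a replicate block edgeR called 0 genes, and the block changed no call. At an unadjusted p under 0.05, edgeR without the low-count filter gave 1 IGF gene and 0 pathway genes, beside 294 over all genes. No other alternative that used all libraries gave such a gene of either list, but some fits with a library left out did.

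Among the 11 alternatives that used all libraries, 87 of 88 member values had the direction of the main fit; the exception was Igfbp3, at 0.027 by limma-voom, and the cause was not tested. With a library left out, 6 of 32 changed direction. Log2 fold changes then ran from -0.26 to 0.55 for Igf2, -0.34 to 0.30 for Igf2r, -0.50 to 0.51 for Igfbp3, -0.36 to 0.10 for Igfbp4 and -0.66 to 0.17 for Igfbp7. For the other members they ran from -0.91 to -0.17 for Igf1, 0.15 to 1.498 for Igf1r and -0.96 to -0.02 for Igfbp5. In summed CPM in place of FPKM, which is not per length, the share of Igfbp5 differed by -4.04 percentage points (AAV-Fgf7 minus AAV-control) in place of -2.54. With a library left out, the difference in share ran from -3.67 to -1.41 percentage points for Igfbp5 and from 1.10 to 3.77 for Igfbp7, both ends set by which AAV-Fgf7 library was left out. Fits that left out a library for the shares, and alternatives for pathway genes and Fgf7, were added after seeing the data. Counts of 9 to 36 per library limit what could be seen for Igf1, Igf2, Igf1r and Igfbp3.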

Other observations

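The tested genes whose libraries varied most like Igfbp5 and Igfbp7 are given as a description. Likeness was the root mean square difference of log2 CPM, centred on each gene's mean over the 4 libraries, among 6369 other tested genes. For Igfbp5 the closest were Sema3b, a secreted semaphorin (0.00761), the adhesion receptor Adgrf5 (0.0440) and the membrane protease Mmp16 (0.0486). Sema3b stood at 42.6 and 34.9 CPM in the AAV-Fgf7 ears of rats 1 and 2, against 39.8 and 77.0 CPM in their AAV-control ears. For Igfbp7 they were the kinase Dyrk1b (0.0128), the imprinted gene Peg3 (0.0365) and the membrane protein Mpzl1 (0.0415). Dyrk1b stood at 125 and 89.0 CPM in AAV-Fgf7 ears, against 94.6 and 169.9 CPM in AAV-control ears. Igfbp7 was the 77th closest gene to Igfbp5, at 0.144. The closest genes are those with the smallest of 6369 differences, over 4 libraries and with no allowance for counting error. No correlation is given, since 4 libraries are too few for it.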
